A study of Mus musculus with 38 samples.

Results

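Secreted proteins of the epididymal duct were followed through 10 genes whose messenger RNA was measured in stromal vascular cells of epididymal fat. The genes were the lipocalins Lcn5, Lcn8, Lcn9 and Lcn10, the ribonuclease family members Rnase9, Rnase10 and Rnase12, the cysteine-rich secretory protein Crisp1, the defensin-like gene Spag11b and the membrane protease Adam28. They were chosen by name because their levels on these arrays were known to vary widely, and every non-control probe that carries 1 of these names was taken, which gave 14 of 40628 probes. All 14 probes carry transcript accessions that the current RefSeq table pairs with the same gene symbols. Because the measured levels chose the genes, the levels below are a description.

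The epididymis is the coiled duct in which sperm leaving the testis mature, and it lies against the epididymal fat pad. Its epithelium is divided into stretches, from the initial segment through the caput and corpus to the cauda, and each stretch secretes its own set of proteins into the lumen. Lipocalins bind small lipophilic molecules, and Lcn5, the epididymal retinoic acid binding protein, is a classical product of the caput under androgen control. Lcn8 and Lcn10 are known from the initial segment, as is Rnase10, and Lcn9 and Spag11b from the caput. Crisp1 coats sperm from the caput to the cauda and takes part in the meeting of sperm and egg. Rnase9 and Rnase12 belong to the same epididymal ribonuclease family, and Adam28 is a metalloprotease that lymphocytes also make. None of these genes but Adam28 is a usual product of fat or of macrophages.

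The 38 arrays came from C57BL/6J mice weaned at 3 to 4 weeks of age and carried 1 diet and 1 time point each. LFC mice ate a low fat diet with 10% of calories from fat (10 arrays), HFC mice a high fat, high sucrose diet with 60% (10 arrays), and HF5, HF20 and HF75 mice the same high fat diet with 5, 20 or 75 µg of the botanical formulation KAL-1 (6 arrays each). LFC and HFC were sampled at days 6, 10 and 14 (D6, D10, D14) and at weeks 0, 3, 6, 9, 12, 15 and 18 (W0 to W18), the doses from W3, and no diet had a second array at a time point. The labels call the cells infiltrating macrophages, and they do not say how many mice stand behind an array. Of 8 general macrophage genes, 7 were well above background on all 38 arrays, as were 8 of 9 adipocyte and 6 of 6 endothelial genes, so marker transcripts of other cells were present too. A level is the log2 processed signal minus the log2 75th percentile of its array, so that 0 is the 75th percentile, and "well above background" is the scanner software's mark. HF5 W12 was the dimmest array, with a 75th percentile of 25.8 scanner units, and HFC W0 the brightest at 1983, and between 40.1% and 91.6% of probes were well above background. HFC W12 and HF75 W12 had 4850 and 6257 spots marked as outliers, against at most 922 on any other array. These outlier spots were left out, and with them went Lcn8, Lcn10 and Adam28 on HFC W12, Lcn8 and Lcn10 on HF75 W12, and Lcn8 on HFC D10. In such bulk RNA, fewer cells of a type and less RNA per cell cannot be told apart.

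The array read each gene through probes of 60 bases, and the identity of a probe decides which of these closely related families is being measured. The probes of 4 genes on which the results below turn are given first, as the array files list them, in lower case throughout.
Crisp1: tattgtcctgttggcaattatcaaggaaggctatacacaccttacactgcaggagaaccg
Lcn8: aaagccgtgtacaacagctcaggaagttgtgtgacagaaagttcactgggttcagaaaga
Lcn10: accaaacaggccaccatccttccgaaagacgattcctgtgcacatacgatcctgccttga
Adam28: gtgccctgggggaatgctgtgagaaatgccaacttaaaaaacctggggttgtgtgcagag
Separate probes of 1 gene gave like patterns over the arrays. The Spag11b probes (GT_Mm_44k_00472 and GT_Mm_44k_00570) had a Spearman rho of 0.97 and those of Lcn5 (GT_Mm_44k_51_P191875 and GT_Mm_44k_00610) 0.91, each over 38 arrays, and the longest run of bases shared within a pair was 5 and 6. For Lcn9 rho was 0.73 (37 arrays) and Pearson r 0.91, and for Adam28 rho was 0.52 (36 arrays) and r 0.85. The weaker rank agreement of Adam28 went with few detected values, since its other probe was well above background on 11 of the 36 arrays. Below, each gene is given by its probe of highest mean level.

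Promoter windows of neighbouring and of co-varying members are shown for a pair of neighbours on chromosome 2 (Lcn8 and Lcn5) and for a pair that varied together (Rnase9 and Crisp1). They are RefSeq windows of build GRCm38.p6 from 250 bases before to 50 after a gene's start, with capitals marking the androgen receptor half-site TGTTCT, which reads AGAACA on the other strand.
Lcn8, chr2:25652868-25653167, plus strand: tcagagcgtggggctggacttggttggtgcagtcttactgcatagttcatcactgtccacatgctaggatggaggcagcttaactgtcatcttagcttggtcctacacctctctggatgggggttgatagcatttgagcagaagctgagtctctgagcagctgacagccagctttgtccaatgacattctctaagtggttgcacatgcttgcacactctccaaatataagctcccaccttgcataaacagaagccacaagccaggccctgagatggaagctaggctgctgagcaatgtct
Lcn5, chr2:25657702-25658001, plus strand: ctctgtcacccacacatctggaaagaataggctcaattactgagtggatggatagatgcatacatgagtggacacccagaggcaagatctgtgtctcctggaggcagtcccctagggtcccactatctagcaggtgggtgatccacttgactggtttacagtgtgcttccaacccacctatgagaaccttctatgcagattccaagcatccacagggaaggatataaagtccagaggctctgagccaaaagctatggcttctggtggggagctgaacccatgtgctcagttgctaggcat
Rnase9, chr14:51041818-51042117, minus strand: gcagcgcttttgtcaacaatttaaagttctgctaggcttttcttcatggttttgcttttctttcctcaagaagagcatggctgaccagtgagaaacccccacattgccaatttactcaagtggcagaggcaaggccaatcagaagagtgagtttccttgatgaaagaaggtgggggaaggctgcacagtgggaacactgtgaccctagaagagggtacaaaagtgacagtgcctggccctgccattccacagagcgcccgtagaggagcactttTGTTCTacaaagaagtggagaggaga
Crisp1, chr17:40319158-40319457, minus strand: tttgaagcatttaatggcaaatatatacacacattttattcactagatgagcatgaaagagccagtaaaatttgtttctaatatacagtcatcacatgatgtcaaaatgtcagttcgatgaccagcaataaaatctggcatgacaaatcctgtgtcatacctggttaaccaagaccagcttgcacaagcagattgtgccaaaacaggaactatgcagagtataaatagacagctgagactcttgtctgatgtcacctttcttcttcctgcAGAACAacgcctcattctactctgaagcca
The Lcn8 and Lcn5 windows hold no such half-site, and the windows of Rnase9 and Crisp1 hold 1 each, after the start. Windows were given for 8 of the 10 members, in 9 windows, and 5 of the 8 genes (6 of 9 windows) held the half-site, which 19.0% of all 32851 windows hold. The windows of Rnase10 overlap and hold the same half-sites, so the count of windows takes these sites more than once. The full palindrome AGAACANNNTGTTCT was in 0 of the 9 windows and in 0.00913% of all, and AGGAAG, a core bound by ETS factors, was in 3 of the 9 and in 35.4% of all. Both strands were searched, and the letters say nothing of whether a factor binds there.

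Crisp1 was either abundant or nearly absent. It was well above background on 29 of 38 arrays, with a level above 0 on 24 arrays, between -4 and 0 on 3 and below -4 on 11, and it was saturated on 8, where its level is a lower bound. Its level in LFC ran from -7.56 (W12) through a median of -2.07 to 6.36 (W6). In HFC it ran from -8.28 (W9) through 4.97 to 5.80 (W3). In HF5 the lowest, median and highest levels were -8.27, 3.76 and 5.05, in HF20 -8.64, 3.03 and 6.16, and in HF75 -6.71, 1.29 and 8.88. High and low arrays occurred in every diet, so the ranges of all 5 diets overlapped. The highest value, on HF75 W3, came from the second dimmest array (75th percentile signal 88.4 scanner units).

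Rnase12 and Rnase9 followed Crisp1. Rnase12 was well above background on 33 arrays and ran from -6.83 (LFC D10) to 7.20 (HF75 W3), with the lowest value not well above background. Rnase9 was well above background on 25 arrays and ran from -9.21 (HF75 W15) to 4.54 (HF20 W3). The medians of Rnase12 were -1.89 in LFC, 2.26 in HFC, 0.24 in HF5, -1.18 in HF20 and -1.77 in HF75. Those of Rnase9 were -4.67, -1.59, -3.65, -5.97 and -4.54 in the same order. All of the ranges overlapped, as they did for Crisp1. Rnase12 was above 0 on 19 arrays, and on all 19 Crisp1 was above 0 too.

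Lcn5, the caput retinoid carrier, reached -8.95 (LFC W12) at its lowest and 6.32 (HF20 W3) at its highest, and was well above background on 21 of 38 arrays. Its median level was -4.88 in LFC, 1.02 in HFC, -3.95 in HF5, 0.24 in HF20 and -6.38 in HF75. HF75 held 1 array with a level above 0, W3 at 3.05, and its other 5 arrays were at or below -5.92. Spag11b, which encodes sperm-binding antimicrobial peptides, was well above background on 28 arrays and ran from -8.95 (LFC W12) to 5.84 (HFC D10, saturated). Its median was -4.73 in LFC, -2.60 in HFC, -2.65 in HF5, -0.56 in HF20 and -1.79 in HF75. For both genes the ranges of the diets overlapped.

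Lcn8, of the initial segment, was detected least. It was well above background on 12 of the 35 arrays where it was measured, and above 0 on 4 of them, HF5 W3 (5.37), LFC D14 (4.10), HF20 W15 (3.23) and HFC W3 (1.82). The lowest, median and highest levels were -9.03, -6.88 and 4.10 in LFC, -8.39, -5.42 and 1.82 in HFC (8 arrays), and -8.34, -5.36 and 5.37 in HF5. They were -8.71, -5.97 and 3.23 in HF20 and -8.47, -7.56 and -5.63 in HF75 (5 arrays). Thus 4 of the 5 diets had 1 array of high Lcn8 and several at background, and HF75 had none. That tally takes the dose from the sample source, since the diet label of the HF5 and HF20 arrays of W15 and W18 names the other dose. By the diet label HF5 would hold both W3 (5.37) and W15 (3.23), and HF20 no array above 0. With outlier spots kept, the missing HFC D10 spot read 0.98.

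The arrays with high Lcn8 were also those with high Lcn9, and some of them had high Lcn10, Rnase10 and Adam28. Lcn9 was above 0 on 5 arrays, the 4 named for Lcn8 and HFC D10 (2.34), and its highest level was 5.20 on HF5 W3. Rnase10 was above 0 on 4 arrays, HFC D10 (2.87), HF5 W3 (2.81), LFC D14 (2.63) and HF20 W15 (1.07). Lcn10 was above 0 on HF5 W3 (1.41), HFC D10 (0.87) and LFC D14 (0.05), and Adam28 on HF5 W3 (2.65) and LFC D14 (1.93). The whole set was thus above 0 on HF5 W3 and LFC D14. On HFC W3, Rnase10 (-0.45), Lcn10 (-1.69) and Adam28 (-1.99) were below 0. Of the arrays with high Lcn8, HF20 W15 had Lcn10 at -0.9 and Adam28 at -0.22. On most others these genes were low but often still marked, Lcn9 on 28 of 38, Lcn10 on 30 of 36, Rnase10 on 25 of 38 and Adam28 on 31 of 37 arrays, and a level below -4 was seen on 24, 23, 29 and 22 arrays.

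**Figure D1:**
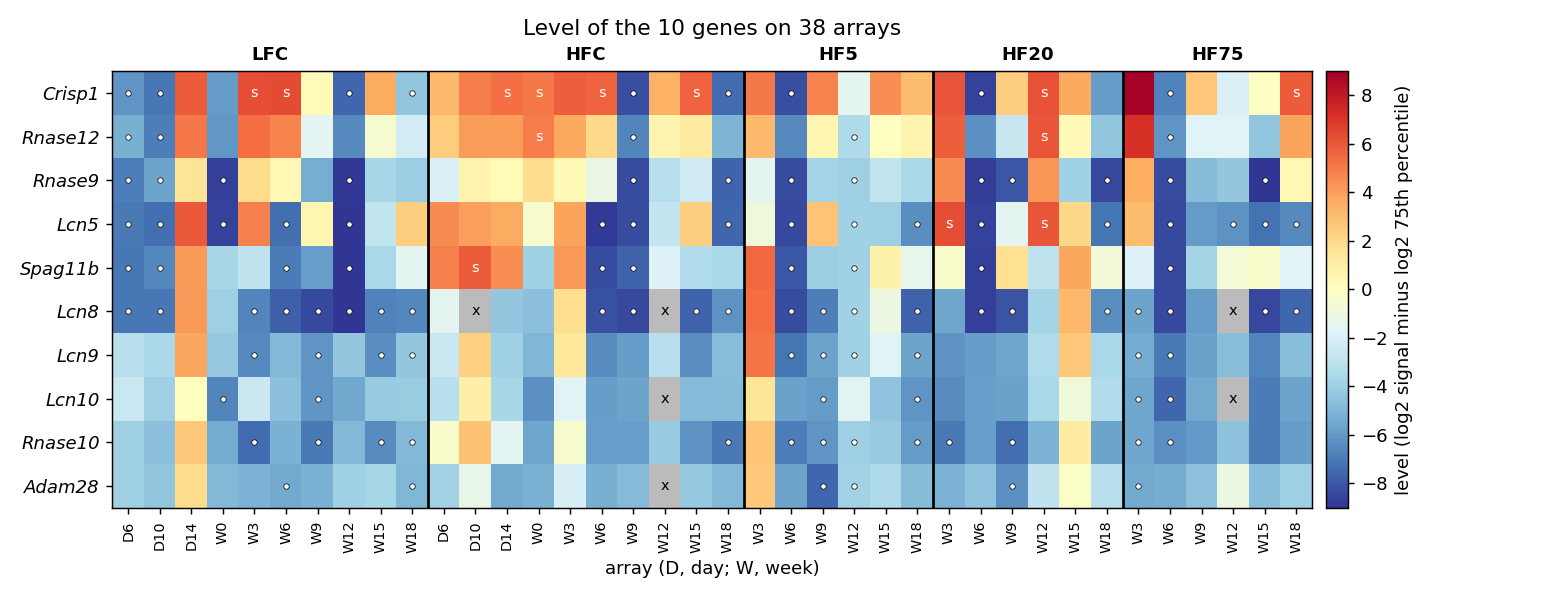
Level of each gene (rows) on each array (columns, by diet and time point), as log2 signal minus the log2 75th percentile of the array. White dots mark values not well above background, s a saturated spot, x a spot left out as an outlier; LFC W3 shows Crisp1 at 6.30 with Lcn8 at -6.67, and HF5 W3 shows both above 5.

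The question of whether genes of the initial segment, the caput and the more distal duct vary together was put through rank correlations over the arrays. These are descriptions, since the arrays share diets and slides and the genes were chosen on these levels. Crisp1 had a rho of 0.96 with Rnase12 and 0.92 with Rnase9, and Rnase9 and Rnase12 had 0.95 (38 arrays). Lcn5 joined them at 0.67 with Crisp1, 0.73 with Rnase9 and 0.75 with Rnase12. A second set held together apart from these, in which Lcn9 had 0.87 with Rnase10, 0.73 with Lcn10, 0.72 with Lcn8 and 0.65 with Adam28. The 10 pairs within Lcn8, Lcn9, Lcn10, Rnase10 and Adam28 ran from 0.49 to 0.87 (median 0.66). The 20 pairs between the sets ran from 0.02 to 0.61, with a median of 0.23. The ranges overlap, and over 35 arrays Lcn8 was as close to Lcn5 (0.61) as to Lcn10 (0.61). Lcn8 was well above background on 12 of these arrays, so most of its ranks were of background values. Where both genes were well above background (11 arrays each), rho was 0.92 for Lcn8 and Lcn10 and -0.01 for Lcn8 and Lcn5. Saturated spots entered at their measured level, so their order among the highest values is not known. Spag11b stood between the sets, at 0.40 to 0.68 with the second set and 0.42 to 0.65 with the first.

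**Figure D2:**
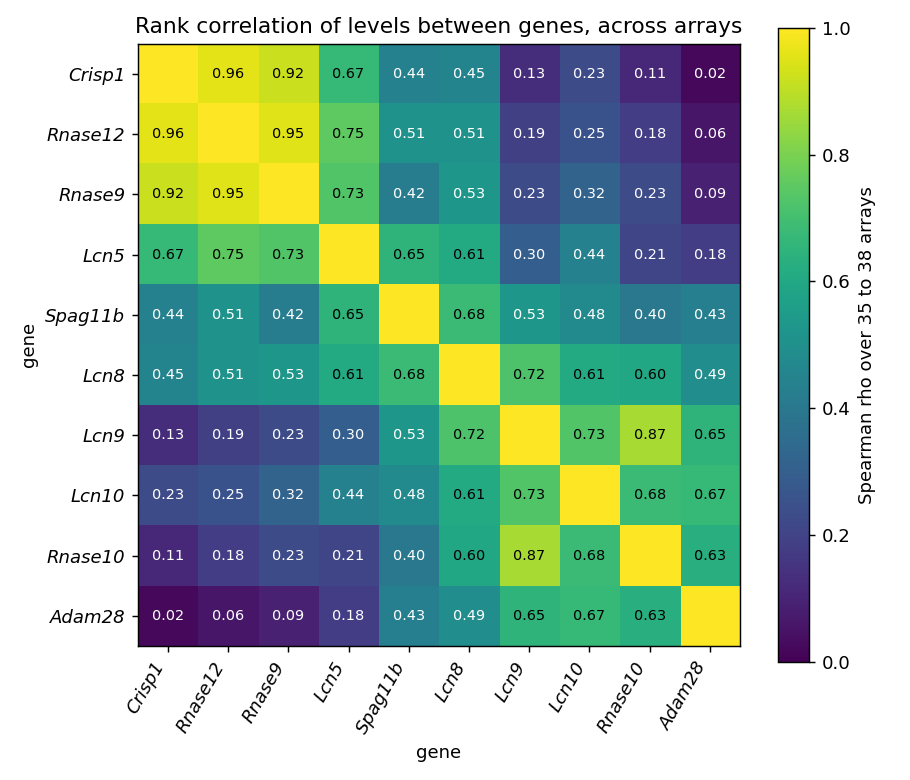
Spearman rho between the levels of each pair of the 10 genes over 35 to 38 arrays, with the value printed in each cell. The upper left block (Crisp1, Rnase12, Rnase9, Lcn5) and the lower right block (Lcn8 to Adam28) hold 0.67 to 0.96 and 0.49 to 0.87, and the cells between them 0.02 (Crisp1 and Adam28) to 0.61 (Lcn5 and Lcn8).

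The sets were drawn after the correlations had been seen and follow the stretches of the duct only in part. Genes of the initial segment (Lcn8, Lcn10, Rnase10) were all in the second set. They had a rho of 0.60 to 0.68 with each other and of 0.11 to 0.45 with Crisp1. The caput genes were split, since Lcn9 had a rho of 0.30 with Lcn5 and 0.53 with Spag11b. Leaving out the 2 arrays farthest from the median of the first gene of a pair gave 0.95 for Crisp1 and Rnase12, 0.42 for Lcn8 and Crisp1, 0.66 for Lcn8 and Lcn9 and 0.85 for Rnase10 and Lcn9. Without the 5 arrays with Lcn9 above 0, a choice made after seeing the data, Rnase10 and Lcn9 had 0.81 (33 arrays), Lcn8 and Lcn9 0.59, and Lcn8 and Adam28 0.26 (31 arrays, from 0.49). Crisp1 and Rnase12 had 0.96 with and without them. The arrays were picked by Lcn9, which narrows the range of its own set, while high Crisp1 levels remained on other arrays. The values therefore cannot say which link is the sturdier.

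Detection of Crisp1 and Lcn8 was one-sided. Of the 35 arrays with both measured, Crisp1 and Lcn8 were both well above background on 12, Crisp1 alone on 14, Lcn8 alone on 0, and neither on 9. Lcn8 above 0 never came without Crisp1 above 0 (4 arrays with both, 18 with Crisp1 alone). With a level at the 5th percentile of detected probes as the mark in place of the scanner software's, Lcn8 came alone on 1 array. Among the 12 arrays with both detected, the rho of Crisp1 and Lcn8 was 0.08, against 0.99 for Lcn8 and Lcn9 over the 12 arrays with both of those. Crisp1 was saturated on 3 of its 12 arrays (HFC D14, HFC W0 and HF20 W12), so its ranks there are not settled. Lcn8, the gene detected least, was one-sided with other genes too. It came alone on 0 arrays and Rnase12 alone on 18 of 35, and within its own set Lcn9 came alone on 13. The pairs of Crisp1 with Lcn9 and with Lcn10 were not one-sided. Crisp1 came alone on 7 and Lcn9 alone on 6 of 38 arrays, and Crisp1 alone on 5 and Lcn10 alone on 8 of 36.

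Single arrays show the difference most plainly. On LFC W3 the level of Crisp1 was 6.30 (saturated), of Rnase12 5.35 and of Lcn5 4.79, while Lcn8 (-6.67), Lcn9 (-6.48) and Rnase10 (-7.45) were not well above background. Lcn10 (-2.49) and Adam28 (-5.11) were marked on that array. HF20 W3 gave 6.09 for Crisp1, 6.32 for Lcn5 and 4.54 for Rnase9, with Lcn8 at -5.56 and Lcn9 at -6.25. HF5 W3 was the reverse for Lcn5 (-0.90) and the highest array of all for Lcn8 (5.37), Lcn9 (5.20), Lcn10 (1.41) and Adam28 (2.65), with Crisp1 at 5.05. On LFC D14 all 10 genes were above 0, and it was the single array where this was so. On 7 arrays (LFC D6, D10 and W12, HFC W9, and all 3 doses at W6) Crisp1, Rnase9, Lcn5, Spag11b and Lcn8 were all not well above background.

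**Figure D3:**
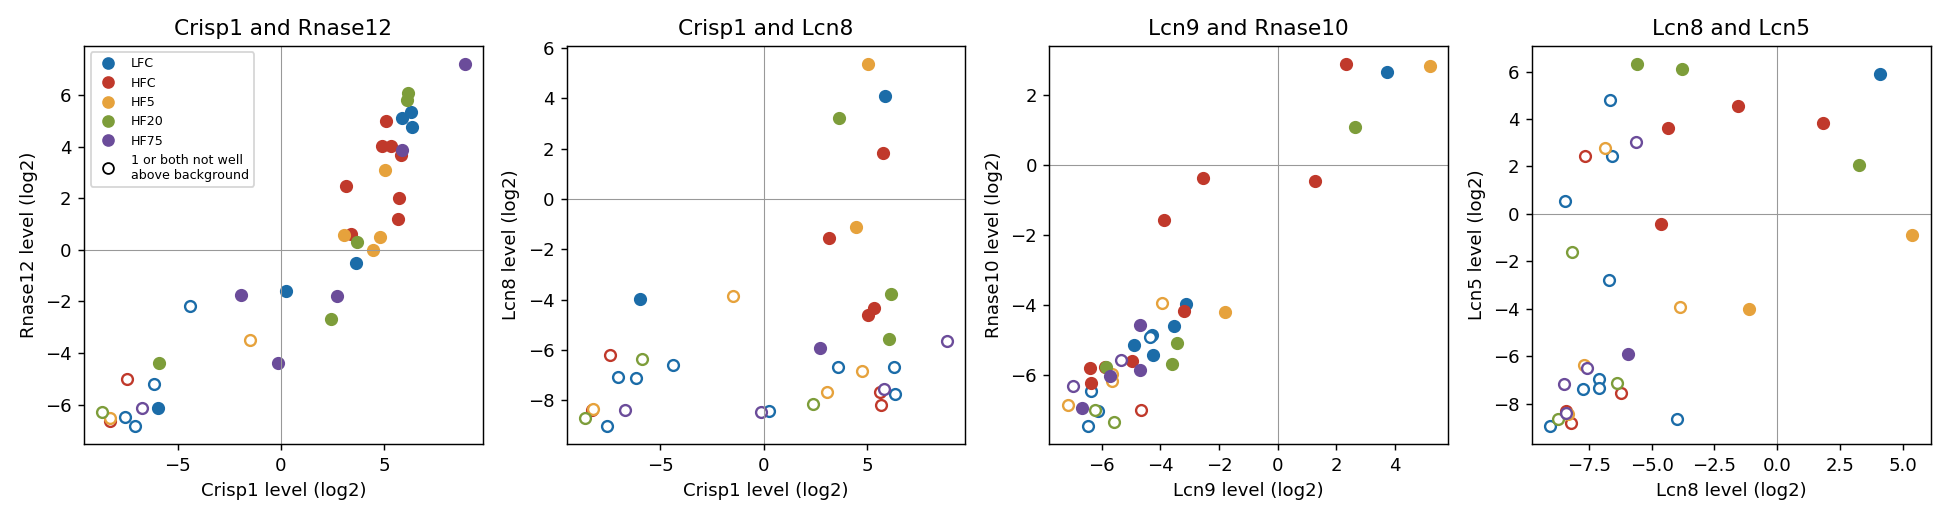
Levels (log2) of 4 gene pairs, 1 point per array coloured by diet, open where 1 or both genes were not well above background. Crisp1 and Rnase12 rise together (rho 0.96), as do Lcn9 and Rnase10 (0.87), whereas 18 arrays with Crisp1 above 0 have Lcn8 at or below 0, and Lcn8 and Lcn5 (0.61) include 10 arrays with Lcn5 alone above 0.

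Neighbours on a chromosome did not all vary alike. In the RefSeq gene order Lcn8 and Lcn5 lie side by side on chromosome 2 with no coding gene between them, and Lcn10 follows Lcn5 after 1 coding gene, and rho was 0.61 for Lcn8 and Lcn5, 0.61 for Lcn8 and Lcn10 and 0.44 for Lcn10 and Lcn5. Where both of Lcn8 and Lcn5 were well above background (11 arrays), their rho was -0.01, and for Lcn8 and Lcn10 it was 0.92 (11 arrays). Rnase10 and Rnase9 lie side by side on chromosome 14 and had a rho of 0.23, while Rnase9 and Rnase12, with 1 coding gene between them, had 0.95. Adam28 and its near neighbour Adam7, which encodes an epididymal sperm-surface protein, had rho values with Crisp1 of 0.02 and 0.92. The Spag11b neighbour Spag11a, a gene of the same family, had a rho of 0.66 with the Spag11b probe of highest level and 0.89 with Crisp1. Adam7 was named for its position, after its values were seen.

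Other epididymal genes showed both patterns. Of 11 further genes of the initial segment and caput on the array (of 12 listed), the rho with Crisp1 ran from 0.29 to 0.92 (median 0.52) and with Lcn9 from 0.15 to 0.77 (median 0.53). The widest ranges in that list were those of Gpx5, the epididymal glutathione peroxidase, and Cst11, a cystatin. Gpx5 ran from -8.71 to 6.50 with a rho of 0.84 with Lcn8 and 0.50 with Crisp1, and Cst11 from -8.77 to 6.05 with 0.72 and 0.29. The 5 genes of the distal duct went the other way, with a rho of 0.66 to 0.92 with Crisp1 and -0.09 to 0.22 with Lcn9. Among these, Akr1b7, an aldo-keto reductase of the vas deferens, ran from -7.55 to 8.96 (rho 0.66 with Crisp1), and Ces5a, a carboxylesterase of the corpus and cauda, from -8.33 to 5.21 (0.92).

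The 10 genes most like the mean level of the members were led by defensins. Over the 38 arrays, among 35487 probes of other named genes detected on at least 5 arrays, they were Defb20 (rho 0.93), Defb48 (0.92), C4bp, Defb42 and Spag11a (0.90 each), Defb35, Defb39, Krt15 and Rprm (0.88 each) and Wfdc11 (0.87). These 10 genes lay nearer to Crisp1 (rho 0.71 to 0.91) than to Lcn9 (0.27 to 0.52), so they do not stand for all members alike. The median rho of all the compared probes was 0.03, and 103 probes (0.29%) reached 0.8, among them 16 different beta-defensin genes. Of all 43 beta-defensin genes on the array, the rho with Crisp1 had a median of 0.67 and with Lcn9 of 0.31, and the widest ranges belonged to Defb28 (-8.25 to 9.58) and Defb38 (-9.41 to 5.68). By single gene, the nearest to Crisp1 were Defb28 (0.98), Wfdc16 and Wfdc9 (0.97 each), Gm46 and Wfdc10 (0.96 each), and the nearest to Lcn9 were 9230110F15Rik (0.83), Cst11 (0.77), Ovch2 (0.76), Teddm1 (0.75) and 9230104L09Rik (0.73). The last 10 were looked up after the sets had been seen. Defensins and the Wfdc family are small secreted antimicrobial and protease-inhibitor proteins.

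Markers of other cells and organs were set beside the members. The 6 epithelial genes followed Crisp1 more closely than Lcn9, with a rho of 0.68 to 0.88 with Crisp1 and of 0.14 to 0.36 with Lcn9. The summed level of that list ran from -0.67 (LFC D10) to 9.07 (HF75 W3), with 2 of 6 well above background on all 38 arrays. Within it, the keratin Krt8 ran from -7.26 to 7.81 and the cadherin Cdh1 from -8.95 to 3.02. The 8 testis and sperm genes had a rho of 0.26 to 0.75 with Crisp1 and a summed level from -2.93 (HF75 W6) to 8.33 (HF5 W9), with Ldhc from -8.51 to 4.66 and Prm2 from -6.29 to 6.79. Seminal vesicle secretions were less alike, at 0.08 to 0.46 for 6 of 8 genes on the array. Their summed level ran from -6.15 (HF20 W6) to 8.97 (HFC W18), and on HFC W18 Crisp1 (-7.45) and Lcn8 (-6.22) were not well above background. Svs6 and Svs4 varied most there, from -9.41 to 7.63 and from -9.28 to 6.86.

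The clear cell genes of the duct were low throughout, with a summed level of at most -0.56 (HF5 W12) and a rho with Crisp1 of 0.14 to 0.45, Atp6v1b1 reaching -0.99 and Foxi1 -3.08. The rho with Crisp1 was -0.54 to -0.01 for 9 adipocyte, -0.44 to -0.03 for 8 macrophage, -0.37 to -0.12 for 6 B cell, -0.33 to -0.08 for 6 T cell and -0.58 to -0.05 for 6 endothelial genes, and 0.07 to 0.55 for 6 mesothelial genes. Adam28, which B cells make, had a rho of -0.35 to -0.13 with the 6 B cell genes, and its other probe had -0.17 to 0.11. The part of the cells that carry these markers in the members' levels was not tested. The macrophage list, to which the labels point, kept a summed level between 4.33 (HFC D10) and 7.91 (HF5 W9).

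The first diet comparison asked whether the high fat diet changed these genes over the whole course. Limma called 0 of the 14 member probes for HFC minus LFC over 10 time points, where 0% of 31203 probes were called (smallest adjusted p 0.547). At an unadjusted p below 0.05 it counted 0 member probes, against 9.05% of all. The median difference of the 14 probes was 1.54 log2 higher in HFC, beside 0.01 for all probes. A probe was kept when well above background on a share of 0.5 of the arrays of either diet. By the LFC arrays alone 10 of the 14 would be kept, and by the HFC arrays alone 14. The median is thus a description, partly set by which probes were kept. Without D6 and D10, a choice made after seeing the data, that median was 0.07, and under normexp background correction it was 0.10. The largest differences were those of Spag11b, 3.35 log2 (SE 1.59), and Crisp1, 3.19 (SE 1.99), while the estimates were -0.05 for Lcn10 (SE 0.67) and -0.13 for Adam28 (SE 0.89). The other Adam28 probe had 0.52 (SE 1.26). Spag11b was higher in HFC at 6 of 10 and Crisp1 at 5 of 10 time points, with Crisp1 differences from -8.52 or lower (W9) to at least 11.09 (D10), each against a value not well above background. Estimates were above 0 for 11 of 11 further genes of the initial segment and caput (median 1.93), 5 of 5 of the distal duct (1.25) and 36 of 36 beta-defensins (1.26). They were also above 0 for 6 of 6 epithelial (1.14), 5 of 5 seminal vesicle (2.32) and 8 of 8 macrophage genes (0.64). The same held for 6 of 6 mesothelial (1.8), 7 of 7 testis and sperm (1.28) and 5 of 5 B cell genes (0.34). In the other lists it was so for 4 of 6 T cell (0.44), 2 of 3 clear cell (0.33), 1 of 9 adipocyte (-0.59) and 0 of 6 endothelial genes (-0.48). In any list 0 were called. These counts are partly set by the filter, since a probe detected in either diet was kept, and are a description. By the LFC arrays alone, 4 of the 11 genes of the initial segment and caput would be kept. So would 25 of the 36 beta-defensins and 1 of the 5 seminal vesicle genes. By the HFC arrays alone all of these would be. The 5 distal, 6 epithelial and 8 macrophage genes would be kept by either.

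The differences lay at single time points and in both directions. At D6, on 1 slide, 7 of 10 genes were at least 2-fold higher in HFC, beside 15.9% of probes, and at D10, also on 1 slide, 9 of 9 were, beside 20.7%. Crisp1 was at least 553-fold higher in HFC at D6 (3.16 against -6.15, not well above background), Lcn5 at least 1438-fold (4.55 against -6.98) and Lcn8 at least 21.0-fold (-1.56 against -7.10). At W12, again on 1 slide, 6 of 7 compared genes were at least 2-fold higher, beside 39% of probes. At D14 the order turned, with 8 of 10 genes at least 2-fold lower in HFC (9.55% of probes), and Lcn8 at -4.34 against 4.10 and Lcn9 at -3.87 against 3.73, while Crisp1 was high on both (5.32, saturated, and 5.87). HFC was lower for 5 and higher for 1 of 9 genes at W9 (6.96% and 6.73% of probes), lower for 4 of 7 at W6 (13.2%) and for 4 of 7 at W18 (13.1%). It was higher for 4 of 10 at W0 (10.2%), for 4 of 9 at W15 (11.1%), and for 5 of 10 at W3 (10.2%), where 2 were lower (9.46%). Of these differences, 2 at W9 changed sign under normexp (Spag11b and Rnase9) and 1 at W12 under quantile scaling (Lcn9).

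D14 and W0 fall on the same elapsed day by the conversion in the study's methods, which, in a passage on its liver arrays, treat them as a repeat of the experiment. In LFC all 10 genes were at least 2-fold lower at W0 than at D14, beside 20.6% of probes. Crisp1 went from 5.87 to -5.96, Rnase12 from 5.12 to -6.11 and Lcn8 from 4.10 to -3.98. In HFC, 5 of 10 were lower and 1 higher (18% and 6.5% of probes), with Spag11b from 4.49 to -3.92 and Crisp1 saturated on both (5.32 and 5.06), which gives no comparison.

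**Figure D4:**
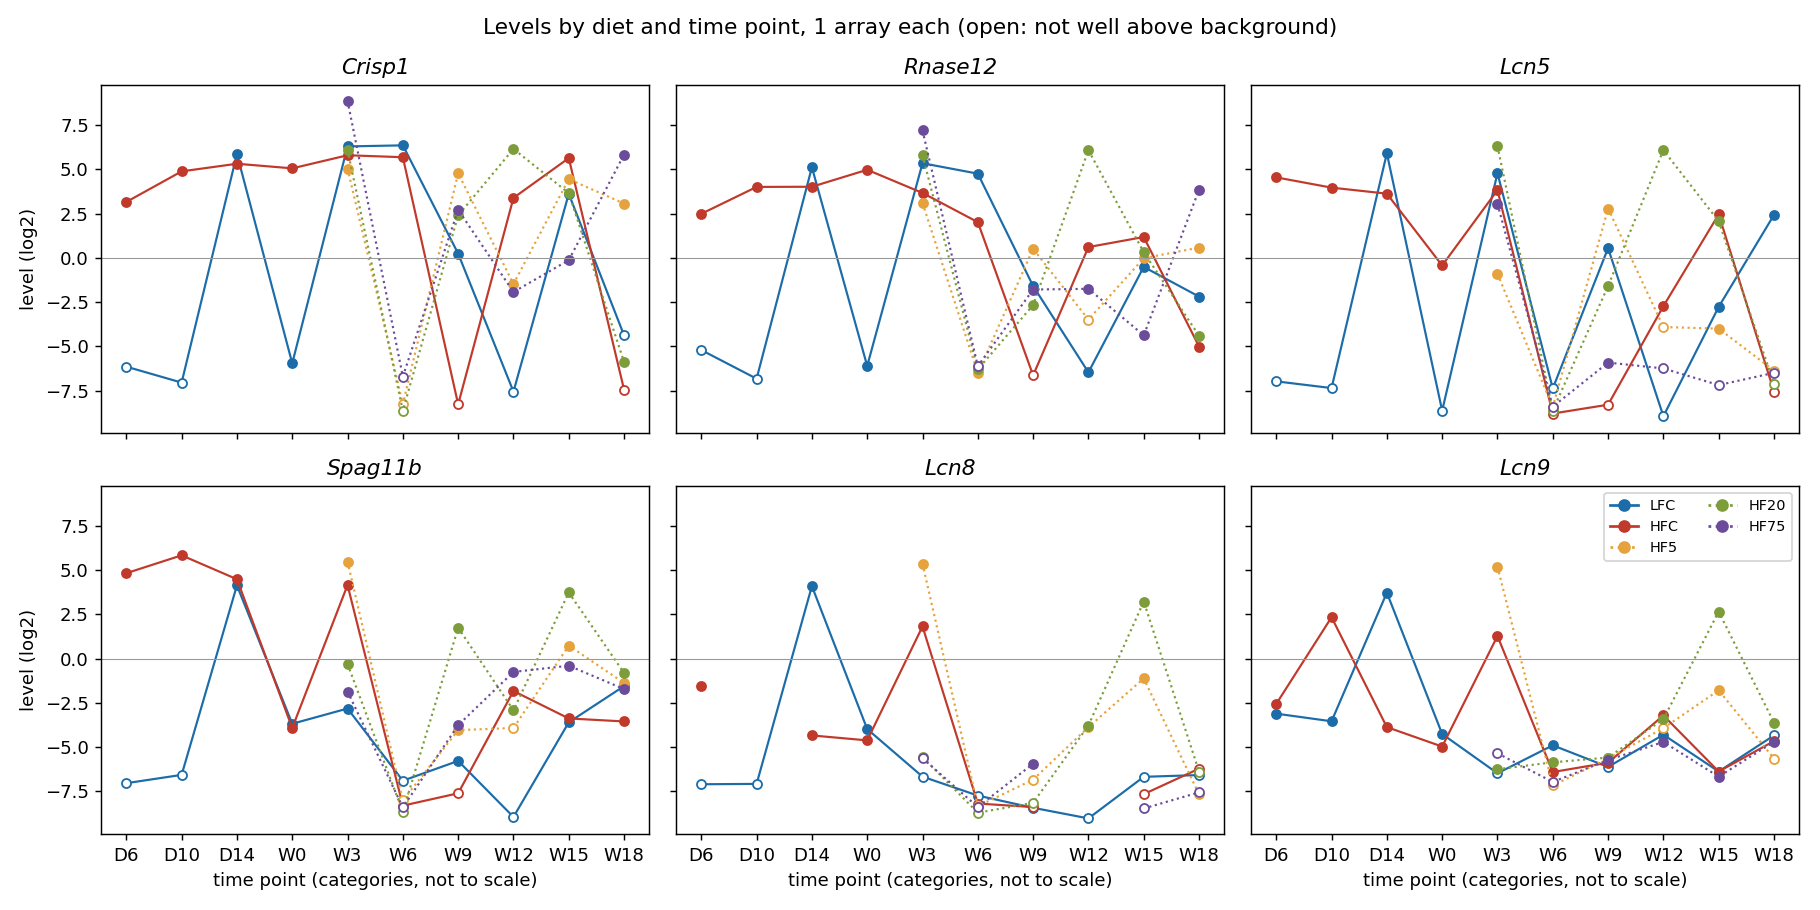
Level (log2) of 6 genes by time point, 1 array per diet and time point, filled where well above background and joined by diet; time points are equally spaced, not to scale. LFC rises and falls between adjacent time points, as for Crisp1 at D10 (-7.05), D14 (5.87) and W0 (-5.96), and all 3 doses are low at W6.

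The change of HFC minus LFC with time and the slope within each diet were tested next. For the change of the difference, limma called 0 of 14 member probes (0% of 31203) and counted 0 at unadjusted p below 0.05 (4.36% of all), with a median of -0.21 log2 per week. Within LFC, 10 member probes passed the filter on dim probes, 0 were called (0% of 28469), 0 were below 0.05 unadjusted (3.89% of all), and the median slope was -0.06 log2 per week. Within HFC, 0 of 14 were called (0% of 31096), and 7 of 14 had an unadjusted p below 0.05, where 7.88% of all probes did. All 10 genes sloped down within HFC, from -0.06 log2 per week (SE 0.07) for Adam28 to -0.44 for Lcn5 (SE 0.20) and Spag11b (SE 0.19), with a median of -0.33 over the 14 probes. Without the HFC arrays of D6, D10 and D14, a choice made after seeing the data, 11 probes passed the filter, 1 was below 0.05 unadjusted and the median was -0.17. Within HFC, 9 of 11 further genes of the initial segment and caput, 18 of 36 beta-defensins and 1 of 5 genes of the distal duct were below 0.05 unadjusted, with 0 called.

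The doses of KAL-1 were compared with HFC over weeks 3 to 18. Limma called 0 of 14 member probes for HF5, HF20, HF75 and their mean (0% of 33780 probes each), and counted 0 below 0.05 unadjusted in each (4.72%, 1.54%, 1.96% and 1.71% of all). The median difference of the member probes was 0.77 log2 for HF5, 0.43 for HF20, -1.16 for HF75 and 0.22 for the mean of the doses. With 1 week left out these reached 1.39 for HF5 (without W6), 1.55 for HF20 (without W6), -0.20 for HF75 (without W15) and -0.02 for the mean (without W9 or W18). For HFC minus LFC in the same weeks 0 were called (0%) and 0 were below 0.05 unadjusted (3.22%), with a median of 0.86, which was -0.10 without W3 and 0.07 without W12. These comparisons share the HFC arrays. Lcn5 was 3.04 log2 higher in HF20 (SE 2.10) and -1.69 log2 different in HF75 (SE 2.10), Lcn8 was 2.01 higher in HF5 (SE 1.83), and Crisp1 differed by 0.47, -0.17 and 0.65 (SE 2.98 each) in HF5, HF20 and HF75. Each of these is within 2 SE of 0.

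**Figure D5:**
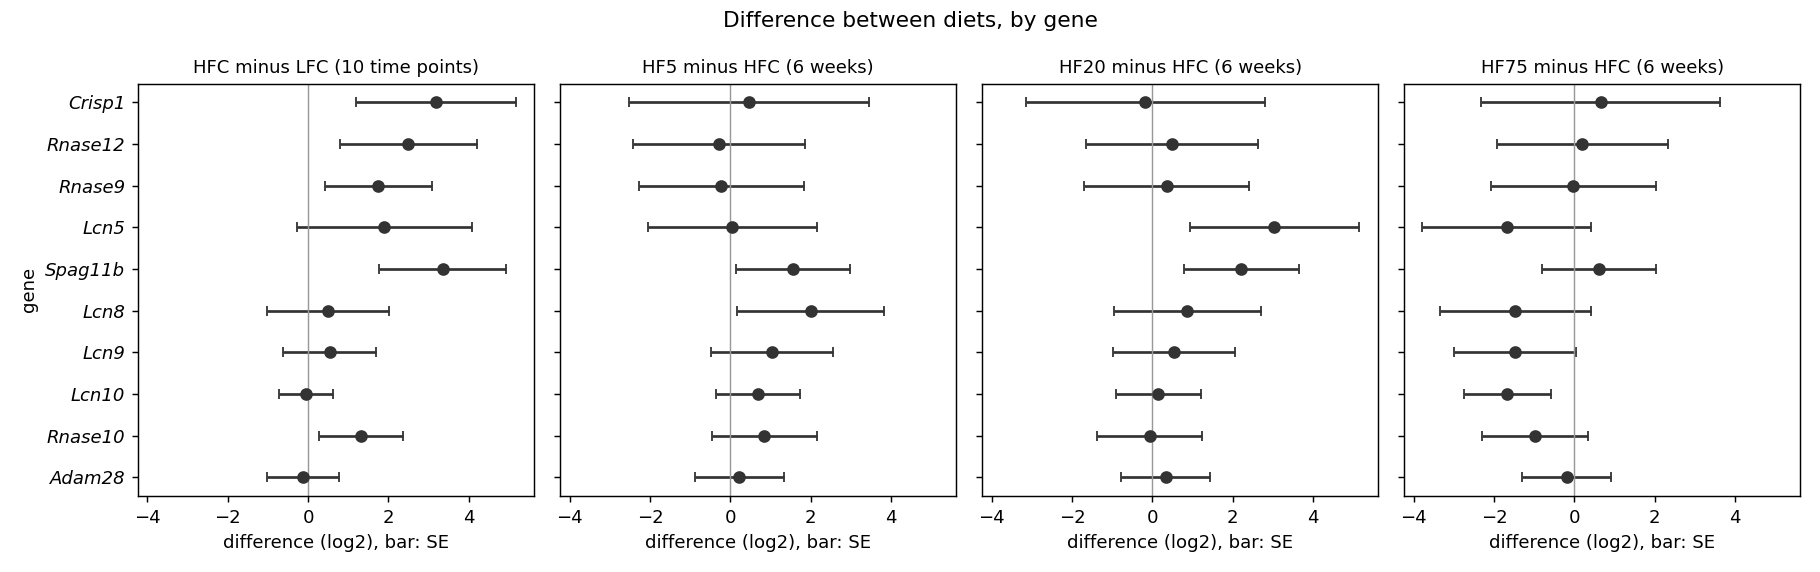
Difference between diets (log2) of each gene's probe of highest mean level, from limma with time point as a block; points are estimates and bars the SE. Spag11b (3.35) and Crisp1 (3.19) lie farthest to the right for HFC minus LFC, and no probe passed the threshold in any panel.

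The weeks of the dose arrays show the same on and off pattern. At W6 Crisp1 was 5.69 (saturated) in HFC and not well above background in HF5 (-8.27), HF20 (-8.64) and HF75 (-6.71), so that 4, 3 and 4 of 7 compared genes were at least 2-fold lower in the doses, beside 9.11%, 9.48% and 15.2% of probes. At W9 the order was reversed, with Crisp1 at -8.28 in HFC and at 4.78, 2.40 and 2.72 in HF5, HF20 and HF75, and 5 of 9, 4 of 8 and 6 of 10 genes higher (26.1%, 26% and 23.7% of probes) beside 1 lower in HF5 (24.5%) and 2 in HF20 (20.2%), on arrays scanned on another day than HFC. At W15, HF20 had 6 of 10 genes at least 2-fold higher and 2 lower than HFC (11.3% and 7.06% of probes), with Lcn8 at 3.23 against -7.66 and Rnase10 at 1.07 against -6.22. At W3, 6 of 10 were lower and 3 higher both in HF20 (3.26% and 10.1% of probes) and in HF75 (27% and 25.2%), and 6 were higher and 2 lower in HF5 (9.3% and 4.63%). At W12, HF5 had 4 of 7 lower (15.7%), HF20 4 of 7 higher and 1 lower (16.8% and 25%), and HF75 1 higher and 5 lower of 7 (18.9% and 16.4%). At W15, HF5 had 4 of 10 higher and 3 lower (4.48% and 12.5%), and HF75 1 of 9 higher and 5 lower (6.06% and 17.9%). At W18, HF5 had 4 of 7 higher and 1 lower (12.8% and 7.26%), HF20 6 of 7 higher (20%) and HF75 5 of 8 higher (11.8%) by measured levels. Against the lowest detected level of HFC W18, Rnase10 was bounded at 1.6-fold in HF20 and 1.4-fold in HF75 and Crisp1 at 1.4-fold in HF20, so 4 genes in each were shown to reach 2-fold. Under normexp, 16 of the 166 such differences in the 28 diet comparisons at single time points changed sign. Those of the doses were, in HF5, Adam28 at W9, Lcn5 and Spag11b at W12 and Lcn10 at W18, and in HF75, Adam28 at W3 and Rnase10 at W18. In HF20 they were Lcn10 and Adam28 at W3, Rnase10 and Adam28 at W9, Spag11b at W12, and Crisp1, Lcn9 and Rnase10 at W18. The lower counts of HF5 and HF20 at W9, of HF20 at W12 and of HF5 at W18 thus rest wholly on genes that turned. HF20 and HF75 of W3 and W18 were scanned on another day than HFC, and so was HF75 of W6. The diet label of the HF5 and HF20 arrays of W15 and W18 names the other dose, so which dose the high W15 array had depends on the label used.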

How the data were processed

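Cells of the stromal vascular fraction gave the RNA for 38 single-colour Agilent arrays. Per the file headers, intensity values were made by Agilent Feature Extraction (version 9.1 per the submitters' processing notes): the processed signal is background-subtracted and detrended within an array, and the deposited mean and background intensity values are unprocessed. Spot marks are 0 or 1 per the file headers. The deposited series table holds log2 ratios to LFC at each time point, made by the authors with GeneSpring; each column was checked against the scanner values (lowest Pearson r 0.994; at least 98.1% of probes within 0.1 log2) and used as an alternative. The 3 dose files of W9 hold rounded values and 5 altered gene names each. No column was without a sample.

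Here, log2 processed signal minus the log2 75th percentile of 43803 non-control spots was taken as the level. Outlier spots were left out and spots of a probe averaged. Where 1 array of a pair was not well above background, a fold is a lower bound against the higher of that array's lowest detected level and the probe's own; a saturated value is also a lower bound. A probe was kept when its share of arrays well above background reached 0.5 in any diet, and was tested with limma 3.58.1 (lmFit, eBayes) in R 4.3.3, two-sided, Benjamini-Hochberg adjusted over all probes, threshold 0.05, with time point as a block except for slopes within a diet; week w was placed at day 14 plus 7w. The t-test over 3 replicates named in the methods could not be run, because each diet and time point has 1 array, so p-values set differences against their spread over time points. Levels not well above background and saturated levels entered the fits, and the counts of 2-fold differences, as measured. The fit was tested on simulated data. The number of arrays limits the precision. The members and lists were chosen with earlier results of these data known.

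All 10 members are named, by their probe of highest mean level, with at most the 2 genes of widest range of each list (among those well above background on at least 5 arrays) and the 10 genes of highest rho with the members' mean; others are said to be chosen later. Lists were analysed for the initial segment and caput, distal duct, clear cells, seminal vesicle, testis and sperm, epithelium, mesothelium, adipocytes, macrophages, B cells, T cells, endothelium and beta-defensins. Alternatives were quantile scaling, normexp (offset 50), other filters, kept outlier spots, no time point block, time points left out, another dose label and other detection marks. No gene coordinates are given, since the array design (mm9) and the RefSeq table differ in build; promoter windows are RefSeq's own.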

Additional observations from a re-analysis of the deposited data

Results flagged for a closer look

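Each gene's levels were searched within each diet for an array whose gap to its nearest neighbour took an unusual share of the whole range (Dixon's 95% critical value, over 50 sets of 5 to 10 arrays). It marked 10 sets, on 6 arrays. Chance marks about 1 in 20 such sets, but these genes were chosen for their wide variation on the same arrays. The count is therefore a description and was not tested against that share. LFC D14 stood high for Lcn8 (4.10, next -3.98), Rnase10 (2.63, next -3.96), Lcn9 (3.73, next -3.11) and Adam28 (1.93, next -3.71). HF20 W15 stood high for Rnase10 (1.07, next -5.07) and Lcn9 (2.66, next -3.42), and HF5 W3 for Rnase10 (2.81, next -3.94). HF75 W3, a dim array, stood high for Lcn5 (3.05, next -5.92). HF75 W12, with 6257 outlier spots, stood high for Adam28 (-1.10, next -3.97). HF5 W6 stood low for Rnase9 (-8.35, next -3.96, which is the value of the dimmest array and not well above background).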

How the results depend on the processing

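In 153 alternative limma fits over the 9 comparisons, 0 member probes and 0 probes of any gene were called; within LFC no member probe passed the filter that requires every array of a diet. The median of the member probes ran from -0.05 (the 3 probes left by that filter) to 3.26 (the 5 time points with both arrays on 1 slide) for HFC minus LFC, and from 0.74 (without D10) to 2.0 with 1 time point left out (0.94 without D6). It ran from -0.10 to 1.23 for HFC minus LFC over weeks 3 to 18, 0.46 to 1.76 in HF5, 0.28 to 1.75 in HF20, -1.56 to -0.16 in HF75, -0.02 to 0.84 over the mean of the doses, from -0.38 to -0.02 for the change with time, and per week from -0.14 to 0.04 within LFC and from -0.39 to -0.13 within HFC. Settings with scan day, 1 slide, or arrays of days 6 to 14 or of many outlier spots left out were chosen after seeing the data. Members were well above background in 262 cases of gene and array, and in 222 to 323 under other marks. Lcn8 went from 12 to 20 arrays when a signal positive and significant over background sufficed, and Lcn9 from 28 to 15 and Adam28 from 31 to 11 when every probe of the gene had to be marked. Crisp1 came without Lcn8 on 14 arrays, and on 10 to 14 under other marks. Of 166 differences of at least 2-fold at single time points, quantile scaling turned the sign of 1 and normexp of 16. No paired analysis was possible because each diet has 1 array per time point and the numbers within a diet only name arrays; time point was the block instead. On HF5 W12 the lowest detected level was -3.92, so absence there says little.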
